A study of Mus musculus with 20 samples.

Results

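Ptgs2 and the other genes of prostaglandin synthesis, sensing, export and breakdown were followed in DC2 cells, a line of immortalized distal caput principal cells of the mouse epididymis. The 10 genes were fixed by name (Ptgs1, Ptgs2, Ptges, Ptges2, Ptges3, Pla2g4a, Pla2g4b, Ptger4, Hpgd and Abcc4), and each was found once among the 21509 protein-coding genes of both abundance tables. The flow experiment held 6 libraries of cells kept under flow with a shear stress of 1 dyn/cm2 over 3 h (flow) and 6 of cells without flow for the same time (static). The siRNA experiment held 4 libraries of cells treated with siRNA against Ift88, a transport protein needed to build the primary cilium, and 4 treated with a control siRNA. According to the methods of the study both siRNA groups were under flow, which their labels do not state, and all cells were first kept in low-serum medium and studied in microfluidic channels. The labels number the libraries without saying whether each came from a separate culture, so p-values measure the spread between these libraries. The methods count 6 experimental replicates each for static and flow cells, without saying what sets 1 replicate apart from another. The design text of the series mentions 4 experiments where 6 libraries stand in each flow and static group, and how the libraries map to those experiments is not stated. The labels of 1 library disagree, its title naming flow and its treatment field static, and it was used as flow replicate 6.

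Prostaglandins are made in 3 steps. Phospholipases A2 free arachidonate from membranes, the cyclooxygenases PTGS1 and PTGS2 turn it into prostaglandin H2, and terminal synthases convert that into prostaglandin E2 and its relatives, which leave the cell and act on receptors such as EP4. PTGS1 is the enzyme made in most resting cells and PTGS2 the one whose gene is switched on within hours by growth factors, cytokines and mechanical stimuli, and epididymal epithelium is known to release prostaglandin E2.

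Values are TPM, abundances corrected for transcript length and scaled to a fixed total, so that levels of different genes can be set side by side. They sum to 1000000 in every library, between 15292 and 16682 genes per library were above 0, and the number of reads behind a value is unknown. The defining secreted markers of principal cells, Crisp1 and Defb15, were listed at 0 in all 20 libraries. Of 5 markers of simple epithelia, the keratin genes Krt18 and Krt19 reached a mean of 1 TPM in flow and static cells, Krt18 at 56.4 and 47.7 TPM, while Epcam, Cdh1 and Krt8 stayed under it. The summed level of 5 macrophage markers ran from 10.5 to 40.3 TPM under flow and from 13.8 to 65.2 TPM in static cells, and from 87.7 to 99.9 TPM over both siRNA groups, most of it Cd68, and the defining marker C1qa was listed at 0 in every library. In bulk RNA, fewer cells of a type and less RNA per cell cannot be told apart. The first principal component of the flow experiment (34.4% of the variance) placed replicates 4 to 6 above replicates 1 to 3 within both groups, and values within each set of replicates stand beside the results below.

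Ptgs2 lies on the forward strand of chromosome 1 of GRCm38 (chr1:150100031-150108227). Its neighbour Pla2g4a, the gene of the phospholipase that supplies most arachidonate in stimulated cells, lies on the reverse strand at chr1:149829618-149961290, with 138740 bases and 0 other protein-coding genes between them. Ptgs1 is on chromosome 2 (chr2:36230426-36252272) and Ptger4, which encodes the EP4 receptor, on the reverse strand of chromosome 15 (chr15:5206661-5244187). RefSeq promoters on GRCm38.p6, running from 250 bases before to 50 after the annotated start, were matched for 9 of the 10 genes. Those of the inducible cyclooxygenase, of the EP4 receptor and of the other cyclooxygenase are shown 5′ to 3′ because the first pair had the largest differences between flow and static cells and the third did not pass a test.

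Ptgs2 (chr1:150099781-150100080, forward strand): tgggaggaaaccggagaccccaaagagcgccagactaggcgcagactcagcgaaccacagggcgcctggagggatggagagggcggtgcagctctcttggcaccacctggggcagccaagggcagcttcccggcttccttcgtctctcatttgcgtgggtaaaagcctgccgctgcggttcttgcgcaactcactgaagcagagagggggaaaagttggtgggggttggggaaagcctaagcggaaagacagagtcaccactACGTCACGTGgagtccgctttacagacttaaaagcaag
Ptger4 (chr15:5244138-5244437, reverse strand): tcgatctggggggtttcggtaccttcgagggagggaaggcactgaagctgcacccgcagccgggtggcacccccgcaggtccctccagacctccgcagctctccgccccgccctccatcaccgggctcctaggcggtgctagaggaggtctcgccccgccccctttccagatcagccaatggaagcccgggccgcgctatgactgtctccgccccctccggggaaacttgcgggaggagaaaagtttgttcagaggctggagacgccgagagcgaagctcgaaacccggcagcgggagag
Ptgs1 (chr2:36230176-36230475, forward strand): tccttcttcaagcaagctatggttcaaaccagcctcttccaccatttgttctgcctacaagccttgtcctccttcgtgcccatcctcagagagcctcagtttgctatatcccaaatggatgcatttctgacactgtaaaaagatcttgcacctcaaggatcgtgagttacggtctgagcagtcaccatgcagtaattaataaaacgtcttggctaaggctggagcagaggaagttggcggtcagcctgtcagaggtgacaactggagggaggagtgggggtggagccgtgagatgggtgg

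The capitals in the Ptgs2 promoter mark a cAMP response element core (TGACGT, read on the other strand), beginning 12 bases after the annotated start, and an E-box (CACGTG) beginning at 16 bases, which share 2 bases. The core was held by 7.51% and the E-box by 7.15% of 32851 promoters of the same length, both by 0.770%, and the same overlap by 0.0974%. The promoters of Ptger4 and Ptgs1 held neither, nor an AP-1 (TGANTCA), NF-kB or Egr (GCGNGGGCG) match or a TATA box on either strand. E-boxes also stood in the promoters of Ptges2 and Abcc4, and an NF-kB match in that of Ptges. Such matches are letters in a window and not shown sites of binding.

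Ptgs2 rose under flow. It ran from 6.92 to 53.8 TPM (median 17.2) in the 6 flow libraries and from 2.31 to 5.46 TPM (median 2.95) in the 6 static libraries. Every flow library was above every static library, and the flow libraries spread far more widely. The means were 21.7 ± 16.9 TPM (SD, n = 6) and 3.46 ± 1.33 TPM (SD, n = 6), a ratio of 6.28. On the log2(TPM + 1) scale, which understates changes of low genes, the change was 2.11 (standard error 0.37, 95% interval 1.32 to 2.91, limma adjusted p = 0.0493). Blocked by replicate number, the same change had a standard error of 0.21 and a limma adjusted p of 0.00155, in a fit that called 0.597% of genes.

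Of the 7 genes of the set with a mean of at least 1 TPM, Ptgs2 was the 1 called at an adjusted p under 0.05 and more than 1.5-fold, where 0.105% of the 11388 genes tested were called. Without the block, the call sits at the threshold and depends on single libraries. Of 12 such fits with a single library removed, 9 lost it, with adjusted p up to 0.162. Those were without flow replicate 1, 4 or 5 or any 1 of the 6 static replicates, and their log2 change stayed between 2.02 and 2.23. Counting the library with conflicting labels as static gave a log2 change of 1.28 and an adjusted p of 1.00, and without it the change was 1.80 with an adjusted p of 0.0284. With the block, Ptgs2 was called in 6 of 6 fits that each left out a same-numbered pair, with log2 changes from 1.88 to 2.29 and limma adjusted p from 9.78e-05 to 0.0422, an alternative chosen after seeing the data. The study names Ptgs2 among its flow-responsive genes on these same libraries, so its direction here is not independent evidence.

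Within same-numbered pairs, Ptgs2 was higher under flow in 6 of 6. The ratio of flow to static TPM was 4.33, 2.91 and 4.20 in replicates 1 to 3, and 8.60, 4.50 and 11.5 in replicates 4 to 6. The smallest ratio was in replicate 2 and the largest in the library whose labels conflict. Fitted within replicates 1 to 3 the log2 change was 1.59 (standard error 0.24, limma adjusted p = 0.122), and within replicates 4 to 6 it was 2.64 (standard error 0.38, limma adjusted p = 0.0361). The difference between the sets, 1.04 with a 95% interval from -0.05 to 2.13, did not pass the limma interaction test (adjusted p = 1.00).

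**Figure D1:**
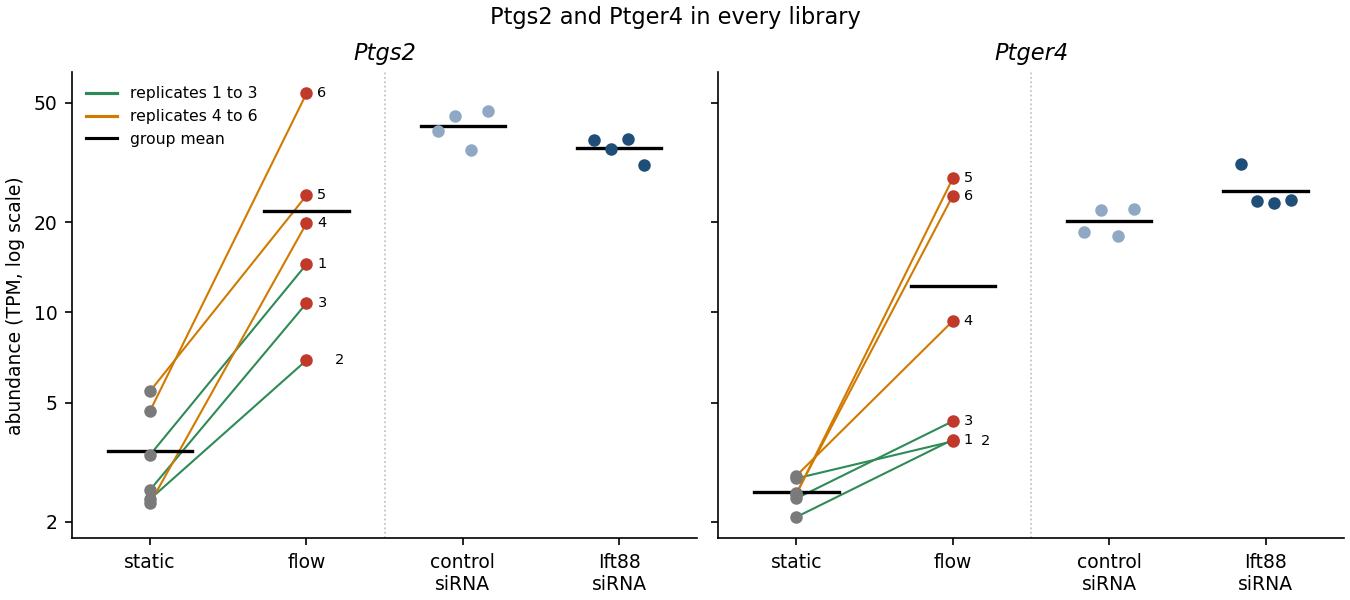
Each point is the abundance of Ptgs2 (left) or Ptger4 (right) in 1 library, in TPM on a log axis, for the static, flow, control siRNA and Ift88 siRNA groups. Lines join libraries that share a replicate number (digits), bars are group means, and the dotted line parts the separately made tables. All flow points of both genes lie above all static points, and for Ptger4 replicates 4 to 6 reach 9.36 to 28.0 TPM while replicates 1 to 3 stay between 3.71 and 4.33 TPM.

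Ptgs1, the other cyclooxygenase gene, did not pass the test. It ran from 5.84 to 20.6 TPM (median 8.71) under flow and from 8.89 to 15.7 TPM (median 12.5) in static cells. The groups overlapped, and flow replicate 2, at 20.6 TPM, stood above every other library. The log2 change was -0.28 (95% interval -0.76 to 0.20, limma adjusted p = 0.998), with lower values under flow in 5 of 6 pairs. Without flow replicate 2 the change was -0.48 and still missed the threshold (adjusted p = 0.186), and with limma's library weights it was -0.61 (adjusted p = 0.0723). Blocked and without the pair of replicate 2, the change was -0.41 with a limma adjusted p of 0.0298, short of 1.5-fold.

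Since TPM allow levels of different genes to be compared, the balance of the cyclooxygenases can be read in each library. Ptgs2 made up from 25.1% to 86.6% (median 66.7%) of the summed TPM of Ptgs1 and Ptgs2 under flow and from 13.1% to 34.6% (median 20.2%) in static cells. Ptgs2 was above Ptgs1 in 5 of 6 flow libraries and in 0 of 6 static libraries. The exception was flow replicate 2, which had both the lowest Ptgs2 and the highest Ptgs1 of the flow group. The summed level of both genes ran from 19.9 to 62.1 TPM under flow and from 12.2 to 18.1 TPM in static cells, so these ranges did not overlap either.

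**Figure D2:**
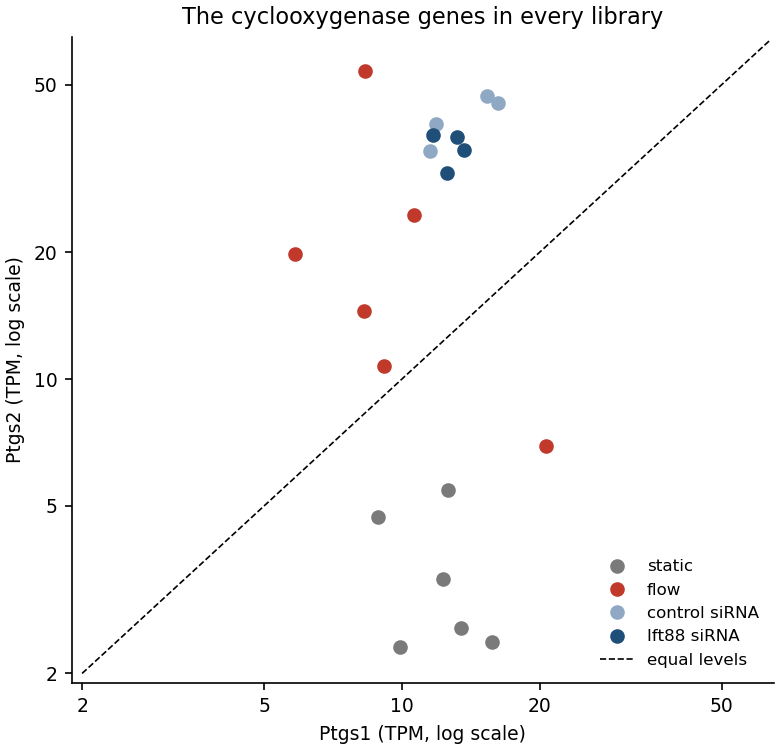
Each point is 1 library, with the abundance of Ptgs1 on the horizontal axis and of Ptgs2 on the vertical axis, both in TPM on log axes, coloured by group. The dashed line marks equal levels. The 6 static libraries lie below the line, 5 of the 6 flow libraries above it, and all 8 siRNA libraries above it.

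Ptger4, the gene of the EP4 receptor for prostaglandin E2, was higher in every flow library than in any static library. It did not pass the limma test over all genes. The study, testing with DESeq2, lists Ptger4 among its flow-responsive genes on these same libraries. The missed call here therefore differs from the call of the study, and the shared direction is not independent evidence. The limma fit of TPM called 12 of the 11388 genes tested. The study called more genes under flow, and why the calls differ was not tested. Ptger4 levels ran from 3.71 to 28.0 TPM (median 6.85) under flow and from 2.07 to 2.85 TPM (median 2.48) in static cells. The static libraries were close together and the flow libraries were not. The means were 12.3 ± 11.1 TPM (SD, n = 6) and 2.51 ± 0.283 TPM (SD, n = 6), a ratio of 4.89. The log2 change was 1.49 (standard error 0.43, 95% interval 0.58 to 2.41, limma adjusted p = 0.430), and the block by replicate number gave an adjusted p of 0.110, or 0.0111 without the pair of replicate 2, in a fit that called 1.7% of genes. Of the 7 genes tested, Ptgs2 and Ptger4 were the 2 without overlap between groups, which held upwards for 0.492% and downwards for 0.0527% of all genes tested.

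The spread of Ptger4 followed the replicate sets. In replicates 1 to 3 the pairs read 3.76 against 2.07, 3.71 against 2.79 and 4.33 against 2.39 TPM (flow against static). In replicates 4 to 6 they read 9.36 against 2.85, 28.0 against 2.48 and 24.5 against 2.49 TPM. All 6 pairs were higher under flow, and the static values were alike in both sets. The log2 change was 0.53 (standard error 0.15, limma adjusted p = 1.00) within replicates 1 to 3 and 2.45 (standard error 0.36, limma adjusted p = 0.0353) within replicates 4 to 6, where it passed the call rule with Ptgs2, beside 0.0443% and 0.490% of genes called in these fits. The difference of 1.92 (95% interval 1.02 to 2.83) had a limma interaction p under 0.05 before adjustment, as 2.09% of all genes did, and of 0.591 after it. Of 12 fits with a single library removed, 11 did not call the difference, which ran from 1.64 to 2.39 over the 12 with adjusted p up to 1.00. The 1 that did was without flow replicate 4 (2.39, adjusted p = 0.000153), where 0.298% of genes were called.

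The other receptors gave little signal. Ptger2 and Ptger3, encoding EP2 and EP3, were listed at 0 in all 12 libraries of the flow experiment. Ptger1, encoding EP1, averaged 0.740 ± 0.368 TPM in flow libraries and 0.956 ± 0.358 TPM in static ones (SD, n = 6 each), below the level tested. Ptger4 therefore made up from 84.0% to 97.1% (median 93.4%) of the summed TPM of these 4 genes under flow and from 60.8% to 82.0% (median 73.6%) in static cells.

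No gene of arachidonate release passed a test upwards. Pla2g4a, next to Ptgs2 on chromosome 1, ran from 12.1 to 16.7 TPM (median 14.2) under flow and from 10.6 to 16.7 TPM (median 13.3) in static cells. The groups overlapped almost fully, with higher values under flow in 4 of 6 pairs. Its log2 change of 0.08 had a 95% interval from -0.16 to 0.32 (limma adjusted p = 0.998).

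Pla2g4b, a related cytosolic phospholipase, was low, with lower values under flow. It ran from 0 to 0.657 TPM (median 0.218) under flow and from 0.377 to 1.59 TPM (median 0.995) in static cells. The groups overlapped, but the flow value was the lower in 6 of 6 pairs. Its mean lay under the level set for the limma fit, so a two-sided exact permutation test was used, with a log2 difference of -0.67 and p = 0.00433, or 0.0216 after adjustment over the 5 tests of this kind. Permuted within the same-numbered pairs, the exact p was 0.0313, the smallest that 6 pairs allow, and 0.156 after adjustment.

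Reads of Pla2g4b are hard to assign. Its gene model (chr2:120033417-120043030, forward strand, GRCm38) lies inside that of Gm28042 (chr2:120027493-120043033), a readthrough model on the same strand that also covers most of Jmjd7 just upstream. Gm28042 averaged 1.10 ± 0.119 TPM in flow libraries and 0.883 ± 0.196 TPM in static ones (SD, n = 6 each), higher under flow in 6 of 6 pairs, the opposite of Pla2g4b. Summed, they ran from 0.922 to 1.85 TPM under flow and from 1.43 to 2.67 TPM in static cells, with an exact permutation p of 0.0368, or 0.184 after adjustment. Jmjd7 averaged 10.7 ± 2.16 and 11.5 ± 1.65 TPM (SD, n = 6 each). How the split of reads between these models bears on Pla2g4b was not tested.

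**Figure D3:**
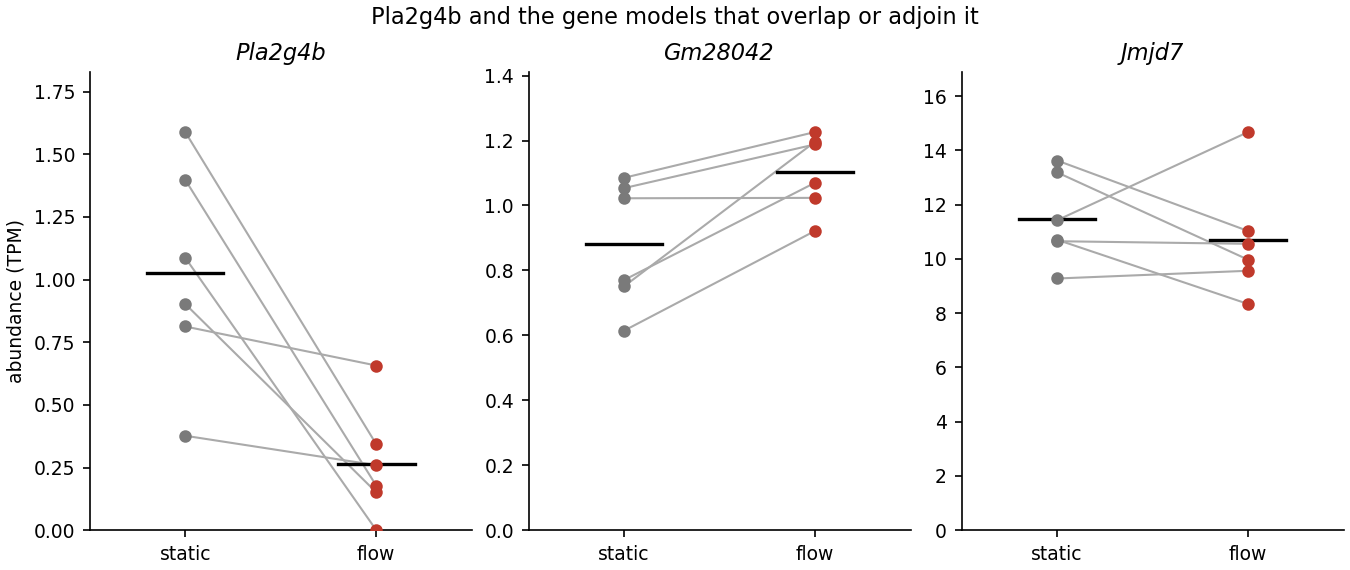
Points are the abundance in TPM of Pla2g4b, of the readthrough model Gm28042 that contains it and of Jmjd7 just upstream, in the 6 static and 6 flow libraries, with lines joining equal replicate numbers and bars at group means. Pla2g4b is lower and Gm28042 higher under flow in all 6 pairs, and Jmjd7 is lower in 4 and higher in 2.

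None of the 3 terminal synthases of prostaglandin E2 passed a test. Ptges3 (chr10:128058954-128077272, forward strand), encoding the cytosolic synthase that is also the p23 cochaperone of HSP90, averaged 434 ± 42.6 TPM in flow libraries and 417 ± 22.7 TPM in static ones (SD, n = 6 each). Ptges2 (chr2:32395896-32405772, forward strand), the membrane-associated form, averaged 10.1 ± 1.13 and 10.2 ± 0.464 TPM (SD, n = 6 each). Ptges (chr2:30889471-30929863, reverse strand), the inducible synthase usually coupled to PTGS2, averaged 0.249 ± 0.183 and 0.255 ± 0.0703 TPM (SD, n = 6 each). All 3 overlapped between groups. The 95% intervals of the log2 change were -0.10 to 0.20 for Ptges3 and -0.19 to 0.17 for Ptges2, and the exact permutation test of Ptges gave p = 0.842. By TPM, Ptges3 made up from 96.8% to 97.9% of the 3 genes under flow and from 97.4% to 97.8% in static cells, and Ptges was the rarest in both groups. Ptges3 has a processed pseudogene in the mouse genome, and how reads were shared with it is not known here.

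Export and breakdown showed no change past a test. Abcc4 (chr14:118482692-118706219, reverse strand), encoding the efflux pump MRP4 that carries prostaglandins out of cells, ran from 14.1 to 18.2 TPM (median 15.8) under flow and from 14.0 to 16.3 TPM (median 15.8) in static cells. Its log2 change of 0.03 had a 95% interval from -0.14 to 0.20 (limma adjusted p = 0.998). Hpgd, encoding the dehydrogenase that inactivates prostaglandins, was listed at 0 in all 6 static libraries and in 4 of 6 flow libraries, and the other flow values were 0.0486 and 0.0447 TPM. The exact permutation test gave p = 0.455, on values too low to tell groups apart.

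**Figure D4:**
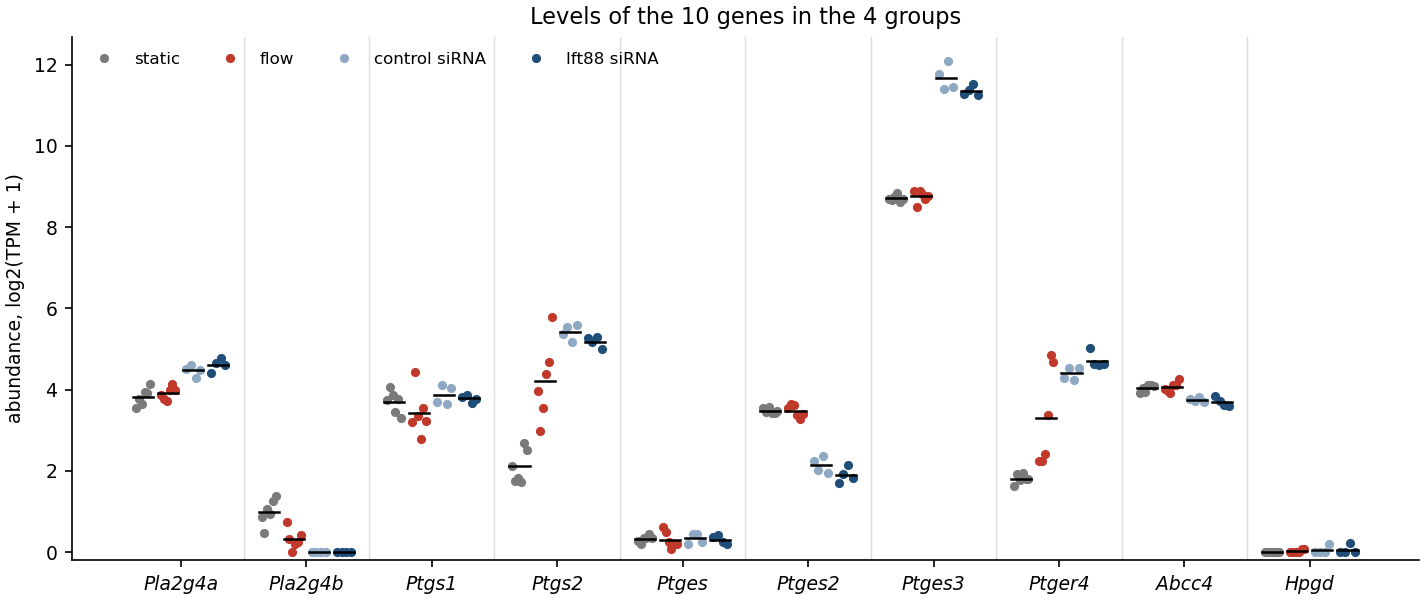
Points are log2(TPM + 1) of each of the 10 genes in every library of the 4 groups, in the order of phospholipases, cyclooxygenases, synthases, receptor, exporter and dehydrogenase, with bars at group means. Ptges3 is the most abundant in all 4 groups, Ptges and Hpgd stay near 0, and Ptgs2 and Ptger4 show the widest gap between static and flow. The siRNA table was made separately from the flow table.

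By level, the order of the 10 genes differed between flow and static mainly in the place of Ptgs2 and Ptger4. In static cells Ptges3 came first, then Abcc4, Pla2g4a, Ptgs1 and Ptges2 with overlapping neighbours between 10.2 and 15.4 TPM, and then Ptgs2 and Ptger4, whose ranges also overlapped. Under flow Ptgs2 stood second, at 21.7 TPM, though its range overlapped that of Abcc4 at 15.8 TPM. The ranges of neighbours from Ptgs2 down to Ptges2 overlapped throughout.

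A wider list of 58 genes of arachidonate metabolism, of which 56 were matched, put these values in their pathway. Of the 46 matched genes that are not among the 10, 19 reached the level tested and 0 were called by limma. Among these 19, 15 were lower and 4 higher under flow, where 6973 of all 11388 genes tested were lower, with a median log2 change of -0.09 beside -0.03 over all genes tested. The 1 with an unadjusted p under 0.05 was Pla2g15, a lysosomal phospholipase A2, with means of 5.80 and 7.32 TPM in flow and static libraries (log2 change -0.31, limma adjusted p = 0.998), beside 3.85% of all genes at that level. Next by p came Cbr1, a carbonyl reductase that also acts on prostaglandin E2, at 59.3 and 67.9 TPM (log2 change -0.22, limma adjusted p = 0.998).

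The genes whose log2(TPM + 1) followed Ptgs2 most closely over the 12 libraries of the flow experiment were Dusp6 (Pearson r = 0.980), Csrnp1 (0.974), Hbegf (0.974), Junb (0.973) and Ier3 (0.972), of 11388 genes ranked. Dusp6 encodes a phosphatase of ERK, Hbegf a ligand of the EGF receptor and Junb a subunit of AP-1. Junb averaged 295 TPM in flow libraries and 51.9 TPM in static ones, with a log2 change of 2.11 (limma adjusted p = 0.0792), and Dusp6 was at 18.6 and 6.36 TPM. Among the other genes of the set, Ptger4 came closest (0.882, rank 79) and Ptgs1 was farthest (-0.54). These points share their libraries and the split between groups, so the correlations are a description.

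In the siRNA experiment the targeted gene was checked first. Ift88 averaged 1.30 ± 0.326 TPM after Ift88 siRNA and 4.14 ± 0.0541 TPM after control siRNA (SD, n = 4 each), without overlap. Of the 7 genes of the set tested, limma called 0, where 0.223% of 11209 genes were called. At an unadjusted p under 0.05 stood 3 of the 7, beside 13.9% of all genes tested.

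Ptgs2 was high in both siRNA groups. With Ift88 siRNA it read 37.5, 35.0, 38.0 and 30.9 TPM, and with control siRNA 40.3, 45.3, 34.7 and 47.0 TPM. The groups overlapped, with 1 control library below 3 of the Ift88 siRNA libraries. The log2 change was -0.23 (standard error 0.10, 95% interval -0.45 to -0.01, limma adjusted p = 0.336). Ptgs1 averaged 12.8 ± 0.864 and 13.7 ± 2.40 TPM (SD, n = 4 each), and Ptgs2 made up from 71.1% to 76.5% of the cyclooxygenase TPM with Ift88 siRNA and from 73.7% to 77.3% with control siRNA. Ptgs2 was above Ptgs1 in all 8 libraries.

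Ptger4 was the 1 gene of the 7 whose siRNA groups did not overlap. It read 31.3, 23.6, 23.1 and 23.7 TPM with Ift88 siRNA and 18.6, 22.0, 17.9 and 22.2 TPM with control siRNA. The lowest Ift88 siRNA library was just above the highest control library, and replicate 1 stood well above the other 3. The log2 change was 0.31 (standard error 0.11, 95% interval 0.07 to 0.56, limma adjusted p = 0.245), and 5.79% of all genes tested were higher without overlap. Ptger2 and Ptger3 stayed at or near 0, and Ptger4 made up at least 96.7% of the summed TPM of Ptger1 to Ptger4 in each of these libraries.

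Ptges3 had the largest difference downwards of the 7. It read 2460, 2670, 2960 and 2422 TPM with Ift88 siRNA and 3502, 2715, 4328 and 2790 TPM with control siRNA. The groups overlapped, with 2 control libraries apart above the rest. Its log2 change was -0.32 (standard error 0.13, 95% interval -0.60 to -0.05, limma adjusted p = 0.291). Ptges2 averaged 2.74 ± 0.509 and 3.46 ± 0.611 TPM (SD, n = 4 each), with a log2 change of -0.25 (limma adjusted p = 0.459).

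The remaining genes of the set did not pass either. Pla2g4a averaged 23.5 ± 2.48 TPM after Ift88 siRNA and 21.2 ± 2.05 TPM after control siRNA (SD, n = 4 each, with a 95% interval of the log2 change -0.08 to 0.36). Abcc4 averaged 11.97 ± 0.993 and 12.5 ± 0.548 TPM (SD, n = 4 each, with a 95% interval of the log2 change -0.26 to 0.15). Pla2g4b was listed at 0 in all 8 libraries, while Gm28042, which contains it, averaged 1.04 ± 0.0844 and 0.879 ± 0.250 TPM (SD, n = 4 each). Ptges averaged 0.238 ± 0.0847 and 0.265 ± 0.116 TPM (SD, n = 4 each), with an exact permutation p of 0.657. Hpgd was above 0 in 1 library of each group.

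**Figure D5:**
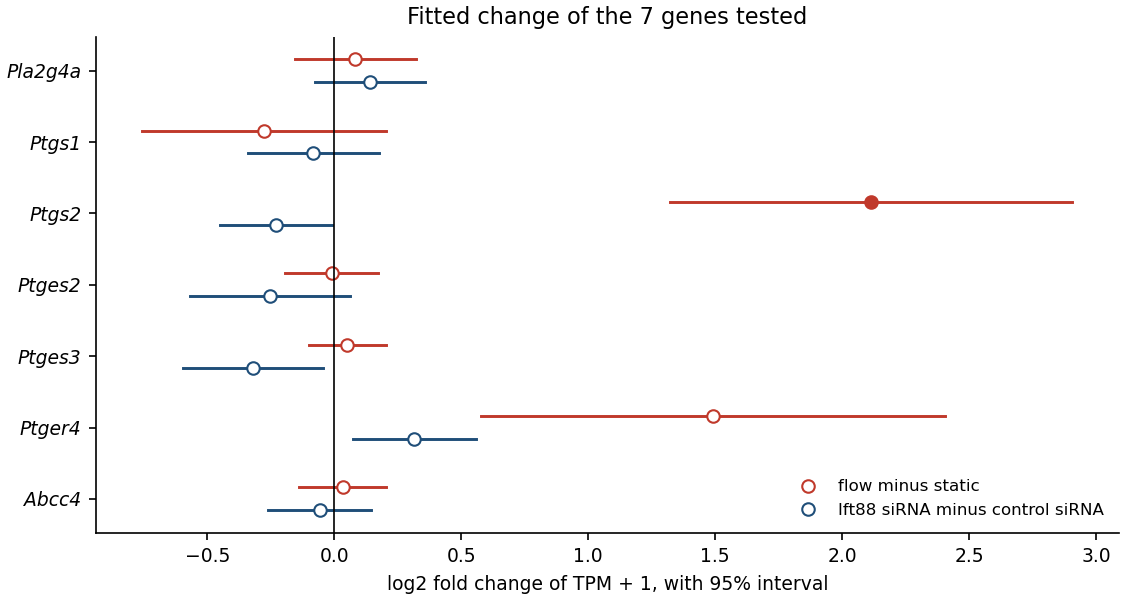
Points are limma log2 fold changes of TPM + 1 and lines their 95% intervals for the 7 genes tested, flow minus static in red and Ift88 siRNA minus control siRNA in blue. The filled point marks the 1 call, Ptgs2 under flow at 2.11, and all other points are open. Only Ptgs2 and Ptger4 under flow have intervals wholly above 0.5.

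The wider list of the siRNA experiment held 26 genes at the level tested, the 7 above among them, of which limma called 0, where 0.223% of all genes were called, and 10 had an unadjusted p under 0.05, beside 13.9% of all genes. Of the 26, 14 had values above control and 12 below, where 6164 of all 11209 genes tested were above, with a median log2 change of 0.00 beside 0.02 over all genes tested. The lowest p were those of Akr1c18, an aldo-keto reductase known for breaking down progesterone, with means of 5.95 and 8.74 TPM in Ift88 and control siRNA libraries (log2 change -0.50, limma adjusted p = 0.10), of Pla2g2e, a secreted phospholipase A2, at 3.33 and 1.58 TPM (0.72, adjusted p = 0.126), and of Cbr1 at 36.4 and 27.5 TPM (0.39, adjusted p = 0.147). None passed the adjustment.

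Over the 8 siRNA libraries the genes closest to Ptgs2 were H3f3b (Pearson r = 0.976), Mast4 (0.941), Ereg (0.939), Gm14295 (0.925) and Dkc1 (0.923), of 11209 ranked. Ereg, which encodes epiregulin, a ligand of the EGF receptor, had means of 36.1 and 44.3 TPM in Ift88 and control siRNA libraries, and limma called none of the 5. Ptger4, close to Ptgs2 over the flow experiment, had r = -0.10 here.

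Levels in the separately made tables can be set side by side but were not tested. Ptgs2 averaged 21.7 TPM in the flow libraries and 41.8 TPM with control siRNA, which the methods also place under flow, and Ptger4 averaged 12.3 and 20.2 TPM. Ptges3 averaged 434 TPM under flow and 3334 TPM with control siRNA, and Ptges2 10.1 and 3.46 TPM. For these synthases the gap between tables was wider than any difference between groups within a table.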

How the data were processed

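RNA-seq libraries of DC2 cells were compared in 2 experiments, 6 flow with 6 static and 4 Ift88 siRNA with 4 control siRNA, grouped by their labels. The authors deposited TPM for 21509 protein-coding genes, 1 table per experiment, not counts. According to the methods and the submitters' processing notes, reads of poly(A)-selected directional libraries were trimmed and assigned to the Ensembl mouse transcriptome with kallisto 0.46.2 and summarised to genes with tximport, and the study tested with DESeq2. TPM hold no depth, so no count model or counting interval was used.

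From the deposited TPM, log2(TPM + 1) was fitted with limma 3.58.1 (eBayes with trend, R 4.3.3) for the genes averaging 1 TPM or more, adjusted by Benjamini-Hochberg over all of these, and called at an adjusted p under 0.05 and more than 1.5-fold. The procedure was tested on simulated data. Genes of the set under 1 TPM had two-sided exact permutation tests (numpy 2.4.6). Flow and static libraries share replicate numbers. After removal of group means, libraries with equal numbers correlated at 0.294 to 0.662 and were treated as paired in a block. Flow replicate 3 correlated most with static replicate 1. The split between replicates 1 to 3 and 4 to 6 stays in these correlations, so they cannot show pairing within a set. The fit without the block is reported first since the methods name no pairing. Named genes are the 10 genes, wider-list genes past the threshold or otherwise the up to 3 lowest p per experiment, and the 5 closest to Ptgs2. The 10 genes and the lists were chosen with earlier results of these data known. Positions are from GENCODE M21 on GRCm38, promoters from RefSeq. Alternatives covered the filter, pseudocount, scaling, library weights, block, fold threshold, the conflicting label, replicate sets and each library left out.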

Additional observations from a re-analysis of the deposited data

Results flagged for a closer look

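Flow replicate 2 stood apart from the other flow libraries in Ptgs1, at 20.6 TPM. Ift88 siRNA replicate 1 stood apart in Ptger4, at 31.3 TPM. Hpgd was above 0 in a single library of each siRNA group, at 0.164 TPM in Ift88 siRNA replicate 3 and at 0.146 TPM in control siRNA replicate 4. These came from 37 gene and group combinations tested for a library apart, and chance alone marks about 1 in 20 where values are normally spread. That rate does not hold for Hpgd, where a single value above 0 is always marked when all others are 0. Ptges2 was higher under flow in each pair of replicates 1 to 3 and lower in each pair of replicates 4 to 6, with a difference of -0.18 between the sets on the log2 scale (limma interaction adjusted p = 1.00).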

How the results depend on the processing

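The count of genes of the set called under flow, 1, was 1 with the replicate block, library weights, no fold threshold, a pseudocount of 0.1 or scaling by median of ratios, and Ptgs2 was that gene each time. It was 0 with no filter on low TPM (Ptgs2 adjusted p = 0.219, with more genes tested), 0 with flow replicate 6 counted as static, 0 within replicates 1 to 3 and 2 within replicates 4 to 6 (Ptgs2 and Ptger4). Leaving out each library gave 0 to 1, and leaving out each pair from the replicate block gave 1 to 2, with 2 (Ptgs2 and Ptger4) without replicate 2. The wider list gave the same counts in each of these fits. The siRNA counts were 0 under every alternative run, the replicate block included. There the same-numbered libraries did not deviate together in every pair (correlations from 0.00276 to 0.259). Whether those samples share more than a number is not stated. The block moved the siRNA calls over all genes from 25 to 44. With the replicate block, 1 gene of the set was called under flow, and the difference of the Ptgs2 effect between replicate sets had an adjusted p of 0.636. That difference ranged from 0.63 to 1.32 without single libraries. The count of genes passing the exact permutation test was 1 (Pla2g4b), and the share of all genes under 1 TPM that would pass was not computed. Within pairs (replicate block) the count was 0, but the smallest exact permutation p that 6 pairs allow, 0.0313, could not pass adjustment over the 5 tests. The count was also 0 with Pla2g4b and Gm28042 summed, an alternative chosen after seeing the data.

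Changes of sign were confined, among the values compared, to genes whose log2 change was near 0. Ptges2 under flow was 0.0177 with median-of-ratios scaling, 0.0172 with flow replicate 6 as static and 0.0809 within replicates 1 to 3, and ranged from -0.0429 to 0.0293 without single libraries and, in the replicate block, was 0.00106, 0.0182 and 0.00426 without the pairs of replicates 4, 5 and 6. Abcc4 was -0.0400 with flow replicate 6 as static and ranged from -0.00737 to 0.0626 without single libraries. Of 313 values of single genes under alternatives, 283 kept their direction and their side of the threshold. The cause of each shift was not tested. Depth is unknown, so genes near 0 TPM such as Hpgd, Ptges and Pla2g4b have no counting error here.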
